A study of Mus musculus with 21 samples.

Results

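Thymocytes from OT-2 mice that had been injected with the agonist peptide of their T cell receptor were set against wild-type thymocytes, 3 arrays against 3 of the 21 in the series. The 3 arrays titled peptide-injected OT-2 came from mice of the strain C57 Bl/6 that carried the OT-2 T cell receptor transgene and received the peptide by intraperitoneal injection 3 hours before harvest. The 3 arrays titled wild type 1 to 3 came from untreated wild-type mice of the same strain, and all mice were 3 to 6 weeks old. Affymetrix Mouse Gene 1.0 ST arrays measured the total RNA of thymocytes sorted by flow cytometry for CD4 together with CD8. The members were chosen by sample title and by probe set number, not by any measured value. The comparison joins the transgene and the peptide, since the injected mice differ from wild type in both. Other groups served for reference: peptide-injected OT-2 with an HDAC7 deltaP transgene, untreated OT-2, HDAC7 knockout, HDAC7-VP16 transgenic, and wild type 4 to 6, with 3 arrays each. The labels name neither the promoters of the transgenes nor the cells in which Hdac7 was deleted.

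At the CD4 CD8 double-positive stage a thymocyte first displays a complete T cell receptor and is tested against peptides of the thymus. Weak binding leads to survival and maturation (positive selection), whereas strong binding to an agonist leads to death or to a regulatory fate (negative selection). The receptor acts through calcium, the MAP kinase cascade and NF-kB, and these switch on immediate-early genes such as the Nr4a and Egr families within a few hours. OT-2 is a receptor that recognizes a peptide of ovalbumin on MHC class II, so its untreated thymocytes undergo positive selection and the injected peptide acts as a strong ligand.

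The values are log2 RMA signals per probe set, and a difference of 1 is a 2-fold change. Arrays of 1 group correlated across probe sets at r from 0.990 to 0.994 in peptide-injected OT-2 and from 0.987 to 0.989 in wild type 1 to 3, against 0.980 to 0.987 between the groups. The design text lists the normalization groups by comparison and does not list this one. That these 6 arrays and the knockout share 1 normalization block rests on their 3 decimals, against 6 in untreated OT-2, and on their distributions. The medians alone do not separate the groups. They lay between 6.24 and 6.26 in peptide-injected OT-2 and between 6.19 and 6.25 in wild type 1 to 3. The knockout had 6.15 to 6.19, and untreated OT-2, taken to lie outside the block, 6.18 to 6.21. Standard deviations of the log2 signals differed little, at 2.14 to 2.22 in the block and 2.23 to 2.26 in untreated OT-2. The shared block is therefore an assumption. Genes carry a name only where the authors listed them in a table of changed genes, which they chose on these samples, so 2111 of the 28923 probe sets tested are named and list counts are not independent evidence of a direction. Markers of double-positive thymocytes were high in both groups: the mean over its 8 measured members lay between 10.43 and 10.52 in peptide-injected OT-2 and between 10.83 and 11.03 in wild type 1 to 3. Cd4 read 10.87, 10.91 and 11.36 in the injected arrays, against 11.77, 11.58 and 11.83 in wild type. In RNA from a mixture of cells, fewer cells of a type and less RNA per cell cannot be told apart.

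Of the 28923 probe sets, 1009 rose (3.49% of those tested) and 658 fell (2.28%) in peptide-injected OT-2 relative to wild type 1 to 3, at an adjusted p under 0.05 in limma with Benjamini-Hochberg adjustment over all probe sets. Among the named ones 382 rose (18.1%) and 306 fell (14.5%), and these shares are the background for the lists below. Rises were larger than falls: 276 probe sets rose and 79 fell by at least 1 on the log2 scale, and 47 rose and 4 fell by at least 2. Centring each array on its median gave 814 rises and 810 falls, and quantile normalization gave 1084 and 931. The total of 1667 changed probe sets was 430 without wild-type array 3, 459 without injected array 1, 577 without injected array 2 and 995 without wild-type array 1. In all 6 fits that each left out 1 array, 252 of the rises and 72 of the falls still passed. Of the 116 changed genes named here 63 passed in all 6 fits and 8 in none of them (Aurkb, Cd8b1, Ect2, Dapk1, Ikzf2, Fkbp5, Vav3 and Ptcra).

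The largest rises joined receptors of the cell surface with immediate-early and stress genes. Gpr65, which codes for a proton-sensing receptor, read 10.04, 10.49 and 9.52 in peptide-injected OT-2, against 6.72, 6.69 and 6.33 in wild type, a difference of 3.44 ± 0.23 (SE, limma adjusted p = 6.02e-04, n = 3 each). Its 3 injected arrays lay more than 2 log2 units above every wild-type array. Gadd45b, a gene of the DNA damage and stress response, had 9.67, 10.09 and 10.19 in peptide-injected OT-2 and 6.42, 6.53 and 7.03 in wild type, and rose by 3.32 ± 0.19. Cd69, the early activation antigen that holds thymocytes in the thymus, had 11.61, 11.50 and 11.24 in peptide-injected OT-2 and 8.01, 8.60 and 7.80 in wild type, and rose by 3.31 ± 0.20. Btla, which codes for an inhibitory receptor, rose by 3.22 ± 0.13, and its groups did not come near each other (9.36 to 9.68 in peptide-injected OT-2, 6.18 to 6.47 in wild type). Gpr183, the gene of an oxysterol receptor that guides migration, rose by 3.00, and Il2ra, which codes for the alpha chain of the interleukin 2 receptor, by 2.76. The tetraspanin gene Cd53 rose by 2.59 and Ly6a, which codes for the surface protein Sca-1, by 2.61. Tgtp1, Ifi208 and Iigp1, genes induced by interferon, rose by 3.17, 2.85 and 2.68. The remaining members of the 15 largest were Nr4a3, Tagap and Nr4a1, described next, and Gm4759, a transcribed pseudogene that rose by 2.49. The rises of Ifi208 and Ly6a each passed in 4 of the 6 fits without 1 array, and those of the other 13 in all 6.

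**Figure D1:**
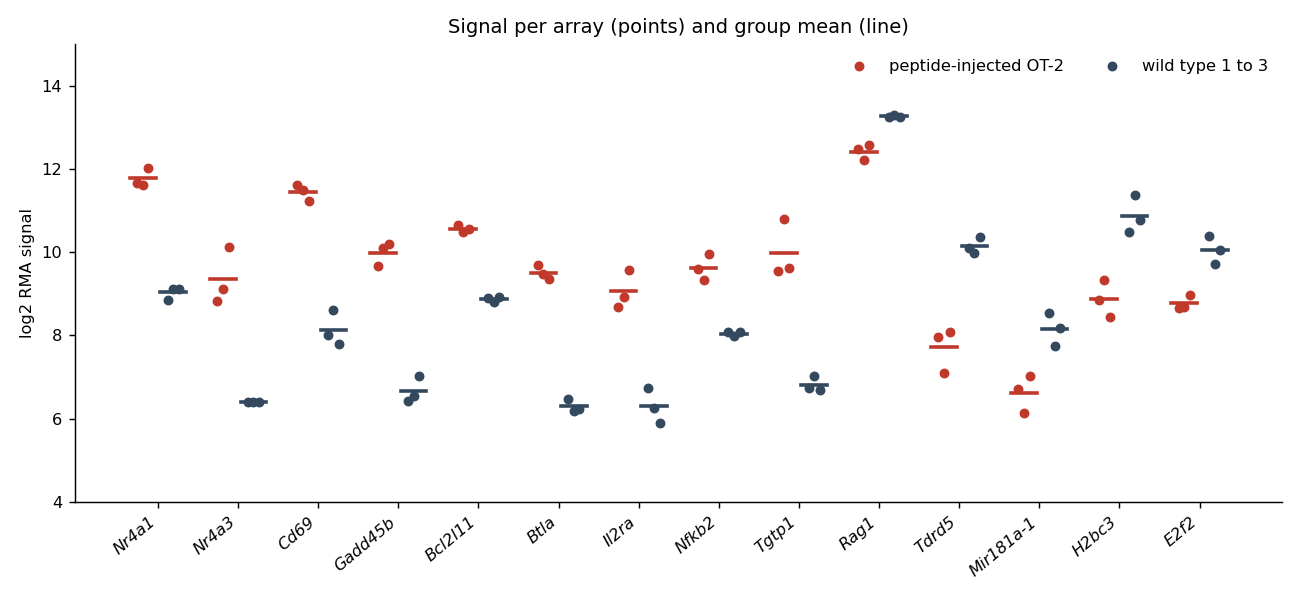
Log2 RMA signal (vertical axis) of 14 genes on the 3 peptide-injected OT-2 arrays (red) and the 3 wild type 1 to 3 arrays (dark blue), with points for arrays and lines for group means. The arrays of the groups do not overlap in these 14 genes, which for many of them the naming rule required. The same held for 7617 of all 28923 probe sets and for 1406 of the 2111 named ones. In Rag1, Tdrd5, Mir181a-1, H2bc3 and E2f2 the injected arrays are the lower ones.

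Genes that the T cell receptor switches on early stood higher in peptide-injected OT-2 than in wild type. Of 21 measured members of the list of immediate-early factors 15 rose, 1 fell and 5 did not pass, with a median difference of 1.25 and 12 to 14 rises in the fits without 1 array, against a median of 0.01 over all probe sets and -0.11 over the named ones. Nr4a1, the orphan nuclear receptor used as a reporter of receptor signal strength, had 11.65, 11.62 and 12.03 in peptide-injected OT-2, against 8.86, 9.12 and 9.12 in wild type, and rose by 2.74 ± 0.14 (limma adjusted p = 2.15e-04). Its relative Nr4a3 had 8.82, 9.10 and 10.13 in peptide-injected OT-2, against 6.39 on each wild-type array, and rose by 2.96 ± 0.29. The injected arrays of Nr4a3 spread over more than 1 log2 unit with array 3 the highest, whereas the wild-type arrays were alike. Tagap, which codes for a GTPase-activating protein of activated T cells, had 8.47, 8.66 and 9.94 in peptide-injected OT-2, again with array 3 the highest, and 6.03, 6.38 and 6.29 in wild type (difference 2.79). Batf, an AP-1 family transcription factor, rose by 1.79 and Ier2, an immediate-early gene, by 1.26. Egr1 and Egr2, the zinc finger factors whose names stand for early growth response, rose by 0.78 and 1.25, Irf4 by 2.02 and Fos by 1.25. These last 4 genes and Nfatc3, the 1 member that fell (-0.61), were picked out after their values were seen. Jun differed by 0.31 and Id3 by 0.41, and neither passed.

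Some genes that switch the MAP kinase cascade off rose as well. Of 10 measured regulators of this cascade 4 rose and none fell, with a median of 0.45; without wild-type array 3 the rises were 2. Dusp2, which dephosphorylates MAP kinases in the nucleus, had 10.36, 10.27 and 10.02 in peptide-injected OT-2, against 8.83, 8.51 and 8.82 in wild type, and rose by 1.50 ± 0.13. Dusp5 rose by 1.06 and Dusp6, specific for ERK, by 0.94, and the call of Dusp6 held in 1 of the 6 fits without 1 array. The adaptor gene Sh3bp2 rose by 1.31. The inhibitors Spred2, Spry2 and Spry1 differed by 0.55, 0.36 and -0.09, Errfi1 by -0.20, Dusp4 by -0.40 and the activator Rasgrp1 by -0.16, and none of these passed.

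The NF-kB subunits and the inhibitors that they induce were higher in peptide-injected OT-2. Of 18 measured members 13 rose and none fell, with a median of 1.03, and 9 to 13 rose in the fits without 1 array. Nfkb2, which codes for the p100 and p52 subunit of the alternative pathway, had 9.60, 9.34 and 9.94 in peptide-injected OT-2, against 8.07, 7.98 and 8.08 in wild type, a rise of 1.58 ± 0.15 (limma adjusted p = 0.00244). Relb, its partner, rose by 1.56 ± 0.17. Icam1, an adhesion molecule induced by NF-kB, had 8.83, 8.82 and 8.87 in peptide-injected OT-2 and 7.54, 7.55 and 7.43 in wild type, and arrays within a group differed far less than the groups did. Birc3, which codes for an inhibitor of apoptosis, rose by 1.13 and Tnip2, a partner of the NF-kB inhibitor A20, by 1.31. Rel and Nfkbid, a subunit and an atypical inhibitor, rose by 1.69 and 1.52, and are given because their promoters follow.

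RefSeq promoter windows (GRCm38.p6, 250 bases before to 50 bases after a gene's start) were found for 14 of the 18 members of the NF-kB list and 31 of the 43 members of the interferon list. A kB site, searched by its usual degenerate pattern on both strands, occurred in 9 of the 14 NF-kB genes, against 5.14% of 27025 genes with a promoter. Among 1597 named genes with a promoter the share was 7.58%. The list was written to hold NF-kB subunits, inhibitors and targets, so such an excess is no evidence from these arrays. Shown are 120 bases around the first match for the 3 members that had a match, rose in every fit without 1 array and had the largest differences. Capitals mark kB sites, and a longer run of capitals is made of overlapping matches. They lie at chr11:23770997-23771116 on the minus strand (Rel), chr19:46304643-46304762 on the plus strand (Nfkb2) and chr7:30422156-30422275 on the plus strand (Nfkbid).
Rel: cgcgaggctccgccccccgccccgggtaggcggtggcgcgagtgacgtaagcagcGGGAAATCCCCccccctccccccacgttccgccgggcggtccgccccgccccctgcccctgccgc
Nfkb2: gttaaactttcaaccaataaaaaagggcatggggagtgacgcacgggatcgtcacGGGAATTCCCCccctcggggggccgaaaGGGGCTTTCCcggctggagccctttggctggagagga
Nfkbid: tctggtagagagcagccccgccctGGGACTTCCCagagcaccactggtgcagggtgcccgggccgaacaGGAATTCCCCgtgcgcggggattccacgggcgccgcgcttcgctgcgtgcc
Of the 9 genes with a kB site 5 rose, and their median difference was 0.62, against 1.13 in the 5 without one. The matches are letters in a window and not measured binding.

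Interferon-stimulated genes formed the list with the most rises. Of 43 measured members 37 rose and 6 did not pass, all 43 were higher in peptide-injected OT-2, and the median difference was 1.13. All 43 were also higher after quantile normalization and on centred arrays, and 24 rose without wild-type array 3, the lowest count of the fits without 1 array. Tgtp1, which codes for a GTPase that acts on vacuoles of intracellular parasites, had 9.55, 10.79 and 9.62 in peptide-injected OT-2, against 6.73, 7.03 and 6.68 in wild type, a rise of 3.17 ± 0.30 (limma adjusted p = 0.00244). Usp18, the protease that removes ISG15 from proteins, had 8.59, 9.13 and 9.26 in peptide-injected OT-2 and 6.58, 7.02 and 6.61 in wild type, and rose by 2.26 ± 0.20. Trim30d rose by 2.26, Rtp4 by 2.01 and Zbp1, which codes for a sensor of Z-form nucleic acid, by 1.05. Near-identical copies exist in the Tgtp, Trim30 and Ifi families, and how far a probe set separates them is not known here.

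The interferon-stimulated response element, searched as GAAANNGAAA on both strands, occurred in 20 of the 31 interferon genes with a promoter window, against 3.99% of 27025 genes. Among 1597 named genes with a promoter the share was 5.51%, and here too the list was written around the pathway. Shown are 120 bases around the first match for the 3 members chosen in the same way, with each match in capitals. A match on the opposite strand reads as its reverse complement. The stretches lie at chr11:48992259-48992378 on the minus strand (Tgtp1), chr19:34640730-34640849 on the plus strand (Ifit1) and chr7:104507826-104507945 on the minus strand (Trim30d).
Tgtp1: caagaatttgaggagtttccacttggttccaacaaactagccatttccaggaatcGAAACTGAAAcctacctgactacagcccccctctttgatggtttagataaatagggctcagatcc
Ifit1: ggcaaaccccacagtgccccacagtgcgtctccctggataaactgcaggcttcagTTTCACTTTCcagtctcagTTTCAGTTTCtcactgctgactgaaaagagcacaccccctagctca
Trim30d: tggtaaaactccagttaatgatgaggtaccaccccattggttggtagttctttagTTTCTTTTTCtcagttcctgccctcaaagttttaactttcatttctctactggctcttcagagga
Ifit1, which codes for a protein that binds foreign RNA, had 7.20, 7.19 and 7.98 in peptide-injected OT-2 and 5.04, 5.47 and 4.79 in wild type, a rise of 2.36. Of the 20 genes with the element 18 rose. Their median difference was 1.13, against 1.15 in the 11 without it.

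Genes that promote death and genes that protect from it both included large rises. Bcl2l11, which codes for the BH3-only protein Bim that is needed for thymocyte deletion, had 10.65, 10.49 and 10.56 in peptide-injected OT-2, against 8.89, 8.80 and 8.93 in wild type, and rose by 1.69 ± 0.10 (limma adjusted p = 2.71e-04). Of 8 measured pro-apoptotic genes 4 rose (Nr4a1, Gadd45b, Bcl2l11 and Dap, the last by 1.13) and 1 fell, the kinase gene Dapk1, by 0.41, a call that no fit without 1 array kept. Bbc3, which codes for Puma, differed by 0.33 and Bmf by 0.52 without passing. Of 9 measured survival genes 3 rose and 1 fell, with a median of -0.04. Bcl2 had 8.80, 8.67 and 9.08 in peptide-injected OT-2, averaging 8.85 ± 0.21, against 7.84 ± 0.16 in wild type (SD, n = 3 each, rise of 1.01), and Bcl2a1d, of a family of near-identical copies, rose by 1.76. Bcl2l1, the Bcl-xL gene on which double-positive cells depend, had 9.83, 9.67 and 10.31 in peptide-injected OT-2 and 10.80, 10.64 and 11.03 in wild type, and fell by 0.89. Its call held in 2 of the 6 fits without 1 array.

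Receptors and enzymes that dampen the T cell receptor rose in part. Of 17 measured members 9 rose and 3 fell, with a median of 0.61. At most 1 of these falls passed when injected array 1 or 2 or wild-type array 1 or 3 was left out. Cd274, which codes for the ligand PD-L1, had 9.56, 9.24 and 9.65 in peptide-injected OT-2, against 7.61, 7.06 and 7.45 in wild type, and rose by 2.11 ± 0.17. Cd5, a tuner of receptor sensitivity whose level follows signal strength, had 12.08, 11.53 and 11.80 in peptide-injected OT-2, against 10.31, 10.22 and 10.49 in wild type, and rose by 1.46 ± 0.15. Ptpn6, the gene of the phosphatase SHP-1, rose by 1.22 and Cd200, which codes for an inhibitory ligand, by 1.45. Socs1, Cbl and Pag1 fell by 0.85, 0.94 and 0.67, the last pair named after their values were seen. The genes of the TNF receptor and agonist selection list had 2 rises in 6 (1 in 5 of the 6 fits without 1 array): Il2ra and Ikzf2, which codes for Helios (0.69). Tnfrsf9, which codes for 4-1BB, had 7.43, 7.48 and 9.19 in peptide-injected OT-2 and 6.28, 6.33 and 6.51 in wild type, and its difference of 1.66 did not pass (adjusted p = 0.0576), with injected array 3 far above the other two. Tnfrsf4, Icos and Tnfsf10 differed by 0.52, 0.43 and 0.36 without passing.

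Genes of maturing thymocytes were higher and genes of cells before selection were lower. Of 23 measured maturation genes 15 rose and none fell, with a median of 0.89, and of 20 measured genes of the pre-selection stage 13 fell and 1 rose, with a median of -0.79. Without wild-type array 3 the rises among the maturation genes were 7 and the falls among the pre-selection genes 4; without injected array 1 they were 8 and 8, and 8 of the pre-selection genes fell without injected array 2. Itm2a, a membrane protein gene induced on positive selection, had 12.35, 12.05 and 12.14 in peptide-injected OT-2, against 10.04, 10.01 and 9.56 in wild type, and rose by 2.31 ± 0.15. Wild type 4 to 6, in another normalization block, ranged from 11.2 to 11.6 for Itm2a, above wild type 1 to 3. Ccr4, a chemokine receptor gene of cells that leave the cortex, rose by 2.18, Ms4a4b by 2.06 and Ccr7, which directs cells to the medulla, by 0.99. Rag1, a subunit of the recombinase that rearranges receptor genes, had 12.47, 12.21 and 12.57 in peptide-injected OT-2, against 13.25, 13.29 and 13.23 in wild type, and fell by 0.84 ± 0.12. It lay at percentile 99.3 of all probe sets in peptide-injected OT-2 and at 99.8 in wild type. Rag2 differed by -0.63 without passing. Themis, which codes for a signalling adaptor of double-positive cells, fell by 0.76, Endou by 0.82 and Dgkeos, an antisense gene, by 1.22. The 1 pre-selection gene that rose was Ptcra, which codes for the pre-T alpha chain (0.56).

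The largest falls were smaller than the largest rises. Tdrd5, a Tudor domain gene known from the germ line, had 7.95, 7.10 and 8.08 in peptide-injected OT-2, against 10.10, 9.99 and 10.37 in wild type, and fell by 2.45 ± 0.25 (limma adjusted p = 0.00268). Its call held in all 6 fits without 1 array. The transporter gene Slc6a19 fell by 1.70, Kremen1, which codes for a receptor of Dickkopf proteins, by 1.43, Ldlrad3 by 1.46 and the semaphorin gene Sema7a by 1.35. A130014H13Rik, A130050O07Rik, A130023I24Rik and Gm10688, transcripts without an assigned function here, fell by 2.21, 2.04, 1.56 and 1.64; the fall of A130014H13Rik passed in 2 of the 6 fits without 1 array and that of Gm10688 in 1. Wild type 4 to 6, in another normalization block, overlapped the injected arrays for A130014H13Rik (8.88 to 9.54) and A130050O07Rik (7.51 to 8.08). For A130023I24Rik and Gm10688 it lay above them. ATP6, a subunit gene of the mitochondrial genome, had 6.85, 7.03 and 7.22 in peptide-injected OT-2 and 7.70, 9.00 and 8.97 in wild type, where array 1 stood apart from arrays 2 and 3, and its fall of 1.53 passed in 1 of the 6 fits without 1 array.

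Small RNA genes were among the falls. Mir181a-1 had 6.71, 6.15 and 7.03 in peptide-injected OT-2, against 8.55, 7.74 and 8.17 in wild type, and fell by 1.53 ± 0.26 (limma adjusted p = 0.0168). Mir181b-1, which lies 97 bases further along chromosome 1, had 8.93, 8.76 and 9.27 in peptide-injected OT-2 and 11.03, 9.87 and 10.13 in wild type, and fell by 1.36 ± 0.28. Wild type 4 to 6 ranged from 6.685 to 7.413 for Mir181a-1 and from 9.03 to 9.94 for Mir181b-1, overlapping the injected arrays of both. Wild type 4 to 6 lies in another normalization block, so block and group cannot be told apart there. Mir128-2, which was picked out after its values were seen, had 5.62, 5.72 and 5.85 in peptide-injected OT-2 and 7.04, 6.51 and 6.78 in wild type, and fell by 1.04 ± 0.14. It lies within Arpp21, a gene of double-positive cells, which fell by 0.82. Of 11 named microRNA genes 3 fell and 4 rose. The mature sequences are shown because miR-181a is known to set the sensitivity of double-positive cells to weak ligands and shares its seed with miR-181b; capitals mark the seed, bases 2 to 8 (RefSeq, GRCm38.p6).
miR-181a-5p: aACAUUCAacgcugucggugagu
miR-181b-5p: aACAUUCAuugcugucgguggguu
miR-128-3p: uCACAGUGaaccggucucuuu
The seeds of miR-181a-5p and miR-181b-5p are identical and that of miR-128-3p differs. The probe sets measure the transcripts of these hairpin genes on total RNA, not the mature microRNAs, which are also made from other loci.

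Replication genes were lower throughout their list, though few passed. Of 30 measured genes of DNA replication and S phase 9 fell, all 30 were lower in peptide-injected OT-2 (also after quantile normalization and on centred arrays), and the median was -0.54. The falls numbered 13 without injected array 3, 7 without wild-type array 2, and 2 without any one of the other 4 arrays. E2f2, a transcription factor gene of the G1 to S transition, had 8.66, 8.68 and 8.96 in peptide-injected OT-2, against 10.39, 9.73 and 10.06 in wild type, and fell by 1.29 ± 0.17. Cdc6, a factor that loads the replicative helicase, fell by 0.69, Pole, a DNA polymerase gene, by 1.02, E2f7 by 0.83 and Rrm2, a ribonucleotide reductase gene, by 0.70. Of 46 mitosis genes 4 fell (Mki67 by 0.79, Cenpf by 0.79, Aurkb by 0.80 and Ect2 by 0.67), 44 were lower, and the median was -0.50. At most 2 of these falls passed in any fit without 1 array. Against 2.28% of all probe sets and 14.5% of the named ones, 4 of 46 is no higher a share than the named background. Ccnd2, a D cyclin gene, had 8.97, 9.28 and 10.60 in peptide-injected OT-2 and 7.53, 7.76 and 7.61 in wild type and rose by 1.98, while Ccnd3, the D cyclin of double-positive cells, fell by 0.77.

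Histone genes, grouped by name after their values were seen, moved one way. Of 26 named histone genes 16 fell and 25 were lower, with a median of -0.79; 8 fell without injected array 1 and 10 without wild-type array 3. H2bc3 had 8.84, 9.33 and 8.44 in peptide-injected OT-2, against 10.49, 11.37 and 10.77 in wild type, and fell by 2.00 ± 0.27. H1f1, a linker histone gene, had 11.28, 11.41 and 11.21 in peptide-injected OT-2, against 12.77, 12.82 and 12.54 in wild type, and fell by 1.41 ± 0.11. The groups did not overlap in either gene, which the rule that named them required. H2az1, the replication-independent variant, differed by 0.05, and by -0.03 after quantile normalization. Many of these genes are near-identical copies, and a probe set can take signal from several.

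**Figure D2:**
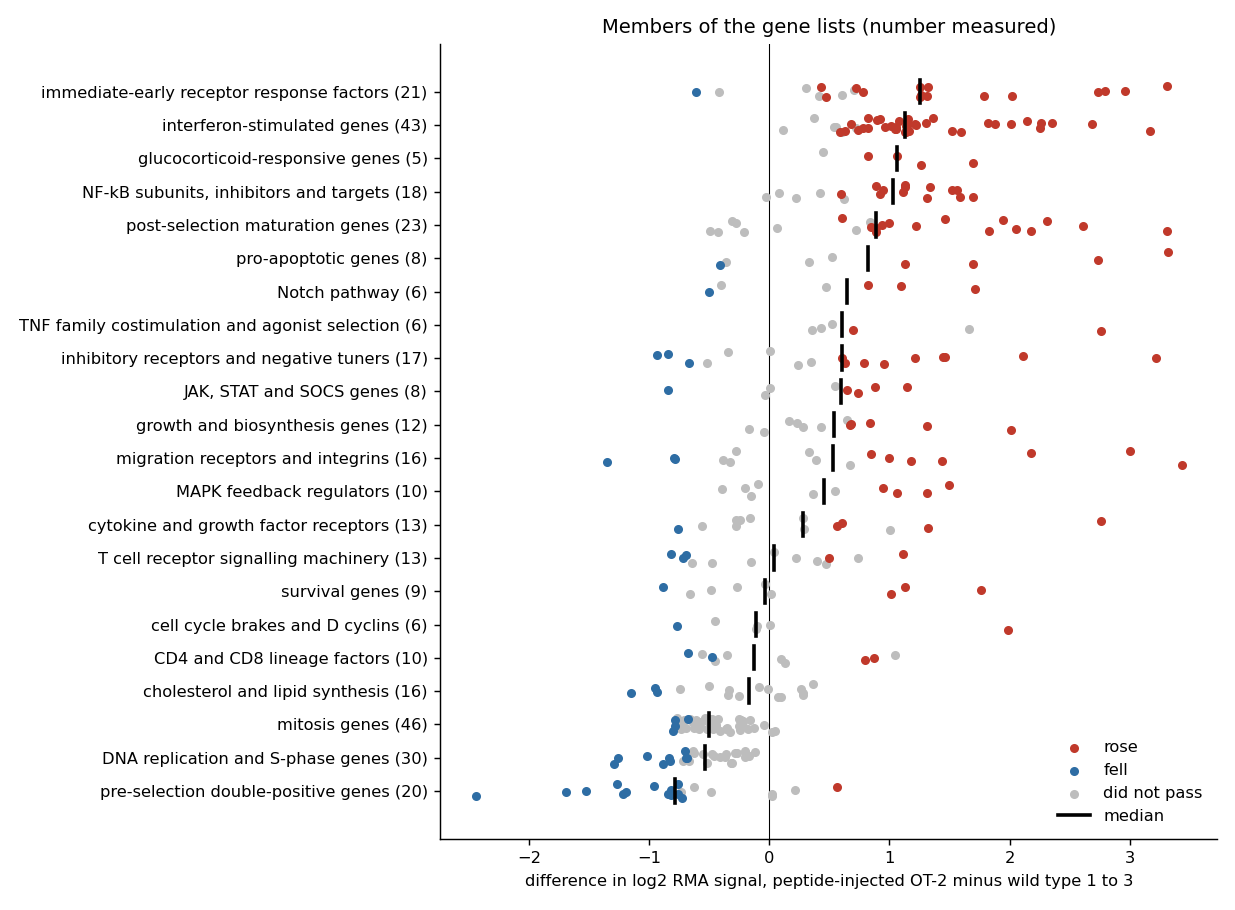
Difference in log2 RMA signal between peptide-injected OT-2 and wild type 1 to 3 (horizontal axis) for each measured member of the gene lists with more than 4 members (rows, number measured in parentheses), with the median as a black bar. Red points rose, blue points fell and grey points did not pass at an adjusted p under 0.05; medians run from 1.25 for the immediate-early factors to -0.79 for the pre-selection genes.

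Further lists covered migration, cytokines, hormones, growth and lipids. Of 16 migration receptors and integrins 7 rose and 3 fell; Ptger4, which codes for a prostaglandin receptor, rose by 1.18 and P2rx7, an ATP-gated channel gene, by 1.43. Among 13 cytokine receptors 4 rose and 1 fell, with Il17rb up by 1.32 and Il17ra down by 0.76. Among 5 genes that glucocorticoids induce 4 rose: Bcl2l11, Tsc22d3 (1.26), Per1 (1.07) and Fkbp5 (0.82), and Pik3ip1 differed by 0.45. Of 6 Notch pathway genes 3 rose (Dtx1 by 1.72, Maml2 by 1.09 and Hes1 by 0.82) and Hes6 fell by 0.50. Hspa5, which codes for the chaperone BiP, had 11.71, 12.05 and 11.63 in peptide-injected OT-2, against 9.65, 10.11 and 9.60 in wild type, and rose by 2.01; Myc rose by 1.31, and 5 of the 12 growth genes rose in all. In cholesterol and lipid metabolism 3 of 16 fell: Scd2 by 0.93 and the sterol exporter genes Abca1 and Abcg1 by 1.15 and 0.95. Among 13 genes of the receptor's own signalling machinery 2 rose (Lyn by 1.11 and Vav3 by 0.49) and 3 fell (Itpr1 by 0.82, Plcg1 by 0.72 and Skap1 by 0.69). Of the lineage factors Tox and Gata3 rose by 0.87 and 0.80, Cd4 and Cd8b1 fell by 0.68 and 0.48, and Zbtb7b, the gene of ThPOK, which commits cells to the CD4 lineage, differed by 1.04 without passing. Of all named probe sets 18.1% rose and 14.5% fell. Near these shares were the falls of the lipid and migration lists, the rises of the signalling machinery and both counts of the lineage factors. Many counts of these lists were lower without 1 array. The rises were then 2 in 5 of the 6 fits for the glucocorticoid list, 1 or 2 for the Notch list, 1 to 6 for the growth genes (1 without wild-type array 3), 2 to 4 for the cytokine receptors and 1 to 3 for the lineage factors. The falls were 1 to 3 among both the lipid genes and the migration receptors and 0 to 2 among the lineage factors. In the signalling machinery at most 1 of the rises and 0 to 3 of the falls passed, and no member passed in all 6 fits.

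Markers of other cells were measured beside these results. For double-negative thymocytes 4 of 5 measured markers rose (Il2ra, Dtx1, Hes1 and Ptcra), 2 or 3 of them in the fits without 1 array, and the mean of the 5 lay between 7.82 and 8.31 in peptide-injected OT-2 and between 6.59 and 6.88 in wild type. The B cell markers Cd79b and Blk averaged 7.48, 7.60 and 8.23 in peptide-injected OT-2, against 7.33, 7.31 and 7.22 in wild type. Blk read 6.50, 6.52 and 7.95 on the injected arrays, and array 3 was also highest for Nr4a3, Tagap, Ccnd2 and Tnfrsf9. Cd79b read 8.47, 8.69 and 8.52, so its highest was array 2 and the higher mean on array 3 came from Blk. Neither B cell marker passed, nor did the myeloid markers Lyz1 and Itgam (0.11 and -0.05), the epithelial marker Cldn4 (0.07) or the innate lymphocyte markers Prf1 and Gzma (0.40 and 0.93). The 1 named dendritic cell marker, Ccr7, also belongs to maturing thymocytes, and no erythroid marker is named. The part of other cells in the changes was not tested.

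T cell receptor segments, named after their values were seen, included clear differences in both directions. Tcra, the alpha chain gene, had 11.72, 11.64 and 11.45 in peptide-injected OT-2, against 9.32, 9.07 and 9.36 in wild type, and rose by 2.36 ± 0.12. Trbv1, a beta chain variable segment, had 8.53, 8.20 and 8.61 in peptide-injected OT-2, against 10.19, 9.98 and 10.04 in wild type, and fell by 1.62 ± 0.13. Of 13 named segments 4 rose and 2 fell, against 18.1% and 14.5% of all named probe sets. The share that fell is near that background.

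The injected mice carried the transgene as well as the peptide. The untreated OT-2 arrays are taken to lie outside the normalization block, so their levels are given as a description with no test. Nr4a1 ranged from 8.43 to 8.52 in untreated OT-2 and from 7.85 to 9.10 in peptide-injected OT-2 deltaP, both below the 11.62 to 12.03 of peptide-injected OT-2. Wild type 1 to 3, at 8.86 to 9.12, lay above untreated OT-2 and overlapped the deltaP arrays. Gadd45b ranged from 6.48 to 7.18 in untreated OT-2, Nfkb2 from 8.01 to 8.17 and Bcl2l11 from 8.63 to 8.75, all near wild type 1 to 3. For Cd53 the untreated OT-2 arrays, at 11.03 to 11.16, overlapped those of peptide-injected OT-2, at 11.12 to 11.30. Trim30d ranged from 6.15 to 6.66 and Tcra from 11.36 to 11.41 in untreated OT-2, far above wild type 1 to 3. Tdrd5, at 8.36 to 8.76, was below wild type but above the injected arrays. Wild type 4 to 6, also outside the block, ranged from 9.7 to 10.2 for Cd53, above wild type 1 to 3. For Gadd45b it ranged from 7.15 to 7.21 and for Bcl2l11 from 8.95 to 9.11, far below the injected arrays. Wild type 4 to 6 overlapped the injected arrays for other genes with a call, among them Ly6a (7.49 to 7.92, injected 7.83 to 9.64). It also did for Ccr7 (7.38 to 7.88), Dusp6 (8.74 to 8.89), E2f7 (7.565 to 7.615), Mki67 (10.79 to 11.05) and Lyn (6.041 to 6.875). Such overlaps were not counted over all genes, and block and group cannot be told apart there.

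Over lists, the immediate-early factors had a median difference of 0.80 between peptide-injected and untreated OT-2 and of 0.19 between untreated OT-2 and wild type 1 to 3. For the NF-kB list these medians were 0.80 and 0.01. For the interferon list the order was the other way, with 0.19 between peptide-injected and untreated OT-2 and 0.94 between untreated OT-2 and wild type 1 to 3, and likewise for the maturation genes (0.24 and 0.65). Both steps cross normalization blocks, so block and group cannot be told apart, and they share the untreated OT-2 arrays. The authors' deposited table gives a fold of 10.9 for Nr4a1 in peptide-injected over untreated OT-2 and of 0.553 in untreated OT-2 over wild type. The wild-type arrays and normalization behind these folds need not be those used here, so they are not steps of the difference tested. In the authors' deposited table Gadd45b has folds of 11.2 and 0.846 for the same steps, and Bcl2l11 has 3.86 and 0.841. The authors' deposited table puts Il2ra at 0.905 and 6.40, Cd53 at 1.24 and 3.35, and Trim30d at 1.11 and 3.51, where the step with the transgene is the larger. For Mir181a-1 the authors' deposited table has a fold of 1.46 for peptide-injected over untreated OT-2 and of 0.333 for untreated OT-2 over wild type, and for Tdrd5 of 0.624 and 0.314.

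**Figure D3:**
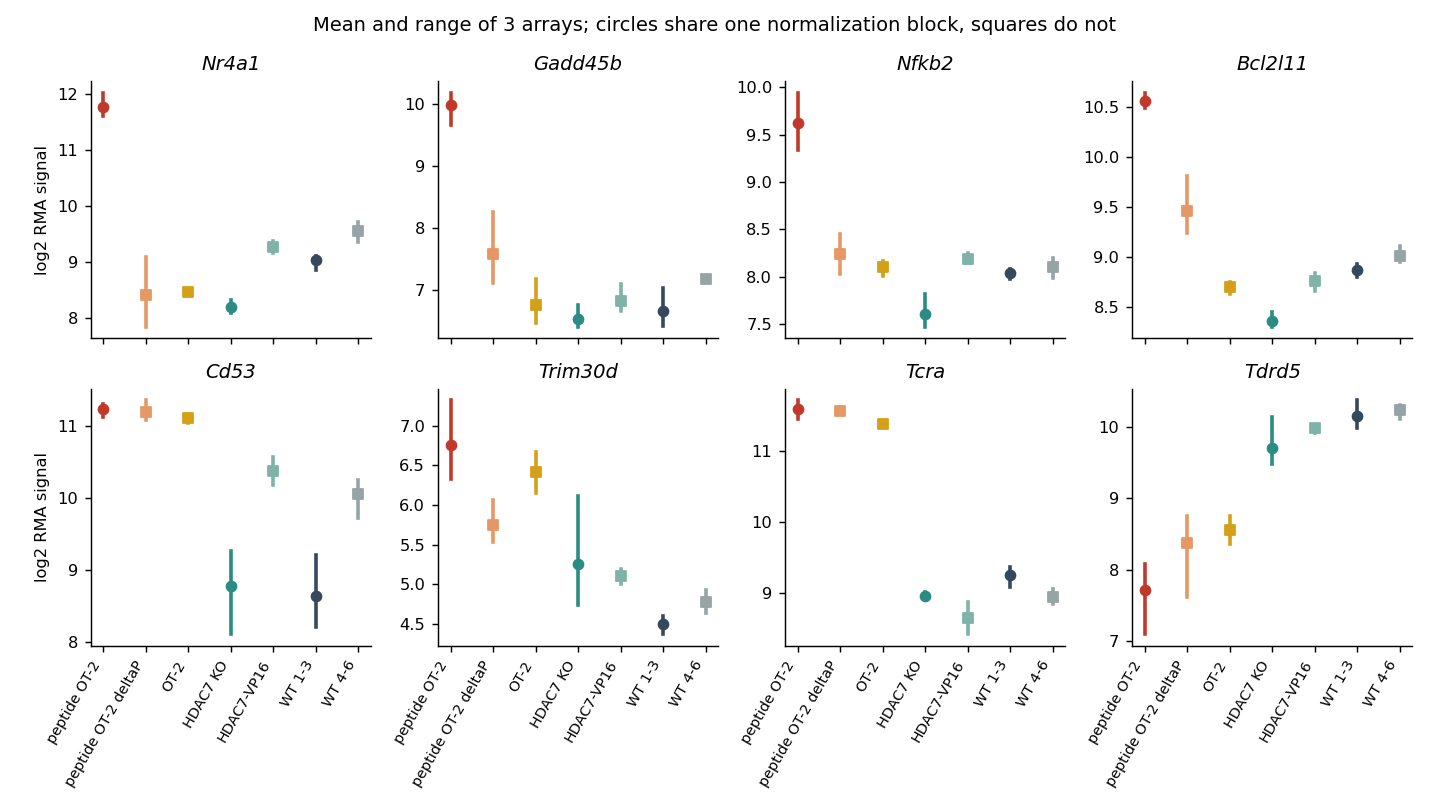
Log2 RMA signal (vertical axis, own scale per gene, not from 0) of 8 genes in the 7 groups of 3 arrays, as mean and range. Circles mark the groups taken to share a normalization block and squares those outside it. Nr4a1, Gadd45b, Nfkb2 and Bcl2l11 are highest in peptide-injected OT-2, while Cd53 and Tcra are about as high in untreated OT-2.

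The arrays labelled HDAC7 knockout were taken to lie in the same block, so peptide-injected OT-2 was also set against them. HDAC7 is a class IIa histone deacetylase that leaves the nucleus on receptor signalling, and loss of it removes a repressor from double-positive cells. Since both groups are set against wild type 1 to 3, this difference is also the test of whether their effects differ. Hdac7 read 10.47, 10.30 and 10.92 in peptide-injected OT-2, 10.98, 10.94 and 10.97 in the knockout, and 11.42, 11.01 and 11.48 in wild type 1 to 3. Its difference of -0.74 between peptide-injected OT-2 and wild type did not pass (adjusted p = 0.0594), nor did that of -0.40 between peptide-injected OT-2 and knockout. The position of its probes relative to the deleted part is not given in the sources used here, so the loss of HDAC7 rests on the labels. Hdac5, of the same class, was 0.84 lower in peptide-injected OT-2 than in the knockout and differed from wild type by 0.41 without passing. Of the MEF2 genes whose products HDAC7 binds, Mef2a fell by 0.68 relative to wild type and Mef2d differed by -0.57 without passing.

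Against the knockout 1414 of 28923 probe sets rose (4.89%) and 1222 fell (4.23%) in peptide-injected OT-2, 2636 in all. The total was 944 without injected array 1, 1058 without injected array 2, 1317 without knockout array 1 and 1356 without knockout array 3, and centring arrays on their medians gave 954 rises and 1737 falls. The immediate-early list had a median difference of 1.70 and the NF-kB list of 1.12. Cd69 read 11.61, 11.50 and 11.24 in peptide-injected OT-2, against 7.32, 8.04 and 7.28 in the knockout, a rise of 3.91 ± 0.21 (limma adjusted p = 1.47e-04). Nr4a1 rose by 3.57, Gadd45b by 3.44, Gpr183 by 3.44, Nr4a3 by 3.38 and Tagap by 3.22, the 6 largest rises with Cd69. The 6 largest falls were 5830411N06Rik (-3.59), Usp17ld (-3.58), AY036118 (-3.32), Prm1 (-2.74), A130014H13Rik (-2.54) and Gm10688 (-2.32). Prm1, the gene of a sperm protamine, had 6.08, 6.13 and 5.82 in peptide-injected OT-2, against 8.70, 8.50 and 9.06 in the knockout, and differed from wild type by only 0.11. For Usp17ld and AY036118 wild-type array 1 was the lowest wild-type array (6.25 and 8.61), below all injected arrays for Usp17ld and above them for AY036118, while wild-type arrays 2 and 3 read 11.22 and 9.24 for Usp17ld and 11.56 and 10.32 for AY036118. Of the 26 histone genes 24 fell and none rose against the knockout. Among all 2111 named probe sets 495 fell and 399 rose against it, the background for such counts.

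Some genes stood apart from wild type in peptide-injected OT-2 and lay near the knockout. Btla read 9.68, 9.48 and 9.36 in peptide-injected OT-2, 8.70, 9.08 and 9.13 in the knockout, and 6.47, 6.18 and 6.23 in wild type 1 to 3. Its difference from the knockout was 0.54 (95% interval 0.21 to 0.86, adjusted p = 0.053), against 3.22 from wild type. For Cd5 the difference from the knockout was 0.30 (interval -0.08 to 0.67) and for Cd200 0.09 (interval -0.36 to 0.53), while both rose relative to wild type. Ms4a4b differed from the knockout by -0.54 (interval -0.96 to -0.11, adjusted p = 0.112), Gm4759 by -0.22 (interval -0.62 to 0.19) and Ly6a by -0.21 (interval -1.50 to 1.09), the last with a spread of almost 2 log2 units within either group. Sema7a, lower than wild type by 1.35, differed from the knockout by -0.02 (interval -0.35 to 0.31). A p that missed the threshold does not show that these levels were equal. P2rx7, Il17rb and Dap, which rose relative to wild type, were lower than in the knockout by 0.70, 0.62 and 1.01 with adjusted p of 0.00849, 0.0151 and 0.0118. Of the 23 maturation genes 8 were higher and 2 lower than in the knockout at an adjusted p under 0.05, with a median difference of -0.02. Of the 20 pre-selection genes 9 were higher and 5 lower, with a median of 0.28. Of all 2111 named probe sets 399 were higher and 495 lower, and the 5 of 20 are near the latter share.

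**Figure D4:**
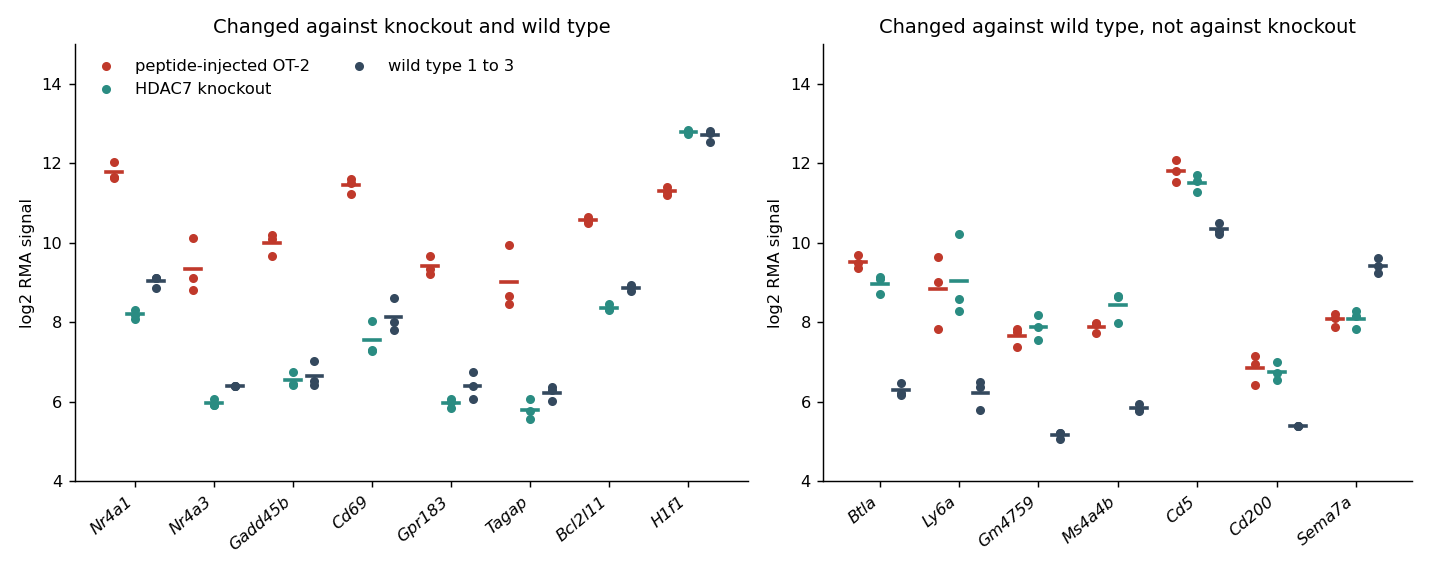
Log2 RMA signal (vertical axis) per array in peptide-injected OT-2 (red), HDAC7 knockout (green) and wild type 1 to 3 (dark blue), with lines for group means. In the left panel the injected arrays lie apart from both other groups; in the right panel they lie near the knockout and apart from wild type.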

How the data were processed

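RNA of sorted double-positive thymocytes was hybridized to 1 array per sample, per the labels. The deposited values are log2 signals that the authors made with RMA, with Affymetrix Expression Console named for some arrays, per the submitters' processing notes; tool versions and the genome build were not given in the sources used here. Fold values in the authors' deposited table are linear ratios. Rows with a probe set number below 10344614 (6612 of 35556) and 21 probe sets that repeated a named gene (the brightest was kept) were left out, so 28923 were tested. Names came from the authors' tables, updated through RefSeq (GRCm38.p6). Earlier results of these data were known when the members were chosen, by title and probe set number, and when the 31 gene lists were written. Differences were fitted with limma 3.58.1 (lmFit, eBayes; R 4.3.3) on 6 arrays, with Benjamini-Hochberg adjustment over all probe sets and a threshold of 0.05, and the code was tested on simulated data. The number of arrays limits precision; nothing beyond the design text, which calls the samples biological replicates, says whether they came from separate animals.

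Genes were named where they had the 15 largest changes in each direction among named probe sets that passed, with no overlap between arrays and with the higher mean above 6.22, the median of all tested, T cell receptor segments aside; up to 5 changed members per list by adjusted p, or the 2 largest differences where none changed; the members of lists with up to 12; Hdac7 and Hdac5; and the 6 largest differences each way against the knockout. Some genes that this rule took are given only by count or are not reported here. Genes singled out otherwise are marked as such, and Rel, Nfkbid and Ifit1 come from the rule for the promoters shown. Alternatives were quantile normalization, arrays centred on their medians, the brighter 14460 probe sets, all rows, a prior with a trend, all 9 arrays of the block, the replicate number as a block and each array left out.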

Additional observations from a re-analysis of the deposited data

How the results depend on the processing

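The 1667 probe sets changed against wild type 1 to 3 became 1096 when all 35535 rows of the table were tested, and stayed within 1.5 times of it under quantile normalization (2015), centring (1624), the brighter 14460 probe sets (2443), a prior with a trend (1788) and the fit of all 9 arrays (2167). Leaving out 1 array gave 430 to 1381 probe sets against wild type and 944 to 2215 against the knockout, whose main count was 2636; the cause was not tested. Replicate numbers did not pair arrays: deviations of arrays with the same number correlated at -0.09, 0.13 and 0.13 with wild type and at -0.08, -0.05 and -0.20 with the knockout. With the replicate number as a block 1423 probe sets changed against wild type and 1666 against the knockout. Calls were followed for the genes named against wild type and for the 6 largest differences each way against the knockout. Some genes therefore count in both comparisons. Of these calls 31 were lost when all rows were tested, 11 with the block, and 3 on centred arrays or in the fit of 9 arrays. After quantile normalization 1 was lost, and 21 to 51 without 1 injected or wild-type array. Of the genes named in the text none changed direction with a call on either side; the sign turned for 4 whose difference was near 0 and never passed. H2az1 was at -0.03 after quantile normalization and between -0.05 and 0.22 without 1 array, Cldn4 between -0.04 and 0.19, Lyz1 between -0.04 and 0.22, and Spry1 between -0.29 and 0.01. Medians of lists moved by more than the spread between arrays in 1 case, the cytokine receptors, at 0.07 over the 12 members among the brighter probe sets. With 3 arrays a group, differences well under 1 log2 unit often did not pass.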
